A study of Homo sapiens with 9 samples.

Results

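The nuclear-encoded subunits of the mitochondrial respiratory chain were followed across 9 RNA sequencing libraries of the human esophageal line EPC2. Members were the protein-coding rows of the count table whose symbols belong to the NDUFA, NDUFB, NDUFC, NDUFS, NDUFV, SDHA to SDHD, UQCR, COX4 to COX8 and ATP5 families, together with CYC1 and CYCS. The rule took 116 of 64253 rows, which carry 99 distinct symbols, and it used no measured value. Of the 116 rows, 20 had no read in any library, 90 passed the filter on low counts and were tested, and 26 were not tested. The tested rows are 81 subunits and 9 other genes that the symbols bring in, namely 7 complex I assembly factors (NDUFAF genes), ATP5S and ATP5SL. By complex, the tested subunits are 36 of complex I, 4 of complex II, 10 of complex III, cytochrome c itself, 14 of complex IV and 16 of complex V.

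The respiratory chain sits in the inner mitochondrial membrane. Complexes I and II pass electrons from NADH and succinate to ubiquinone, complex III passes them to cytochrome c, and complex IV passes them to oxygen. Complexes I, III and IV pump protons, and the ATP synthase (complex V) uses the proton gradient to make ATP. Most subunits are made from nuclear genes and imported, while the mitochondrial genome encodes a small set of core subunits of complexes I, III, IV and V and none of complex II.

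EPC2 is described by the labels as normal squamous cells of the esophagus, kept in a keratinocyte medium with pituitary extract and epidermal growth factor. Each group has 3 libraries. The group labelled Ctrl is called untreated in the design text and mock untreated in the protocol, the empty vector group (labelled Lipo) received vector DNA with Lipofectamine 2000, a cationic lipid reagent, and the FOXF1 plasmid group (labelled Fox) received that plasmid in the same way. FOXF1 is a forkhead transcription factor. Whether the untreated cells received any reagent is not stated, so the comparison of the empty vector with them covers the DNA and, if they received none, the reagent as well, while the FOXF1 plasmid differs from the empty vector by its insert. The sources used here do not state the DNA dose, the time to harvest or the share of cells that took up the plasmid. The triplicates are called biological by the submitters, without saying whether they came from separate cultures, so the tests measure the spread between these libraries.

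Total counts ran from 34390666 to 39973289 per library, and levels are given as CPM, counts scaled to a common library size. A gene without a read could have a level of up to 0.0872 CPM in the smallest library, taking 3 counts as the limit and covering counting error only. FOXF1 had 367, 184 and 141 reads in the plasmid libraries, 1, 0 and 0 in untreated libraries and 0, 0 and 6 with the empty vector. Most squamous markers went against the labelled cell type, with 9 of 13 below 1 CPM. TP63 had 0 reads in every library and KRT5 had 8 to 19. Other squamous markers were expressed, with SFN, JUP, PERP and KRT6A averaging 105.9, 78.63, 21.74 and 1.197 CPM by total counts. KRT7, KRT8 and KRT18, keratins of simple epithelia, averaged 1130, 1396 and 1277 CPM by total counts. KRT19 averaged 156.9 CPM, while CDH1 and EPCAM of the same list were at 9.195 and 4.553 CPM. On the TMM scale used for the members, the summed squamous markers were 202.9 to 221.7 CPM in untreated, 190.9 to 216.2 in empty vector and 211.1 to 219.0 in FOXF1 plasmid libraries, which overlap. By total counts these sums were 188.3 to 195.1, 212 to 225.9 and 214.6 to 218.9 CPM, with the untreated libraries lowest. The 6 simple-epithelial markers summed to 4057 to 4687, 3446 to 3868 and 3954 to 4209 CPM on the TMM scale, lower in every empty vector than in every untreated library, while by total counts (3794 to 4124 and 3815 to 4041 CPM) these groups overlapped. The 8 fibroblast markers summed to 2899 to 3130, 2893 to 3086 and 3168 to 3522 CPM on the TMM scale. Of these 8, 5 were below 1 CPM, with COL1A2 and LUM at 0 reads. COL1A1, VIM and THY1 carried the sums and went different ways. COL1A1 averaged 1210 ± 114 CPM in untreated and 1487 ± 32.0 in empty vector libraries, VIM 846.5 ± 38.0 and 746.0 ± 52.7, and THY1 956.6 ± 48.0 and 787.9 ± 49.7. The part of these markers in the results was not tested. In bulk RNA, a change in the number of cells of a type and a change in RNA per cell cannot be told apart.

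The promoter sequences of 5 members are given: UQCR10, NDUFA3 and NDUFB4 had the largest called falls with the empty vector, and SDHD and SDHA are subunits of a single complex of which SDHD rose and SDHA was not called. They come from RefSeq on GRCh38.p14, 5′ to 3′ on the plus strand, from 250 bases before the annotated start to 10 bases after it. Capitals mark matches to the binding motif of NRF1, a transcription factor known for activating respiratory genes (GCGCA and GCGC with any base between them), or in SDHD also to the ETS family motif (CCGGAAG, there on the minus strand).
UQCR10: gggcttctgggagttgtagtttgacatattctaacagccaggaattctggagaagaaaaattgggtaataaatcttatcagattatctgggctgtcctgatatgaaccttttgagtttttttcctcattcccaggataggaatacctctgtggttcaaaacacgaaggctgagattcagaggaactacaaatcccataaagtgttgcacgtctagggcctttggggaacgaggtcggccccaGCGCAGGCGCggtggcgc
NDUFA3: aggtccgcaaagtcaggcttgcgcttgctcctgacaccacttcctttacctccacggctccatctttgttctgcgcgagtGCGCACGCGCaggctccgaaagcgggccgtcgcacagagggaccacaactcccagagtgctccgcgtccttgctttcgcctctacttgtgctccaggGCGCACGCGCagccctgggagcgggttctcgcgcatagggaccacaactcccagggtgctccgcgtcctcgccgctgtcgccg
NDUFB4: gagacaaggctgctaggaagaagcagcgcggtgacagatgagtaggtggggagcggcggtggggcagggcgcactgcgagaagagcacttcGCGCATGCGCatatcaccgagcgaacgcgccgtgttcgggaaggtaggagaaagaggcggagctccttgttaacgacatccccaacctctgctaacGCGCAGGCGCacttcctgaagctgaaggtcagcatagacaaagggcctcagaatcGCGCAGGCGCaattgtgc
SDHD: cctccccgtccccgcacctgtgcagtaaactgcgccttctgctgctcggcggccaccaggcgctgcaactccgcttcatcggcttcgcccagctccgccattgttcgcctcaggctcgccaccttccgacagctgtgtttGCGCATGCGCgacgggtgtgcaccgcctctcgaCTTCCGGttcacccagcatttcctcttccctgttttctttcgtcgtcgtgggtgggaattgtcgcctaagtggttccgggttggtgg
SDHA: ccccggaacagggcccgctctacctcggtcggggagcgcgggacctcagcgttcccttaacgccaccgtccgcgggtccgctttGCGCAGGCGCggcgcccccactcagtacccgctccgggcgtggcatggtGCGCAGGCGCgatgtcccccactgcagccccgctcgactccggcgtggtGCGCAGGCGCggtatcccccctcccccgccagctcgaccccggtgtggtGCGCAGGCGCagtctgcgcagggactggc
The stretches are chr22:29767119-29767378, chr19:54102605-54102864, chr3:120596086-120596345, chr11:112086623-112086882 and chr5:218070-218329. UQCR10 has 1 NRF1 match, NDUFA3 has 2, NDUFB4 has 3, SDHD has 1 beside its ETS match, and SDHA has 4. In GENCODE 29 on GRCh38 the genes that the results turn on lie on the plus strand, with UQCR10 at chr22:29767369-29770413, NDUFA3 at chr19:54102728-54109257, NDUFB4 at chr3:120596309-120602500, COX8A at chr11:63974607-63976543, ATP5G1 at chr17:48892765-48895871, SDHD at chr11:112086773-112120013 and NDUFAF2 at chr5:60945129-61153037. The SDHA matches begin at positions -166, -117, -68 and -19 relative to the start, 49 bases apart. Of the 5 genes shown, SDHA has the most NRF1 matches. These 5 do not stand for the members that moved most. NDUFAF2, with the largest rise (0.84 on the log2 scale), is not shown and has no NRF1 match. Neither has COX8A, whose fall was close to that of NDUFB4 (-0.69 each).

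Windows from 250 bases before to 50 after the start were found for 72 of the 90 tested members and searched on both strands for these motifs and for that of YY1 (AAGAT followed directly by GGCGG). No match of one motif overlapped a match of another in these windows. The NRF1 motif was in 16 of the 72 windows (22.2%), against 11.7% of the 11508 windows of all tested genes and 6.28% of all 27305 windows of this length. The ETS motif was in 20 (27.8%), against 18.7% and 10.7%, and the YY1 motif in 7 (9.72%), against 2.7% and 1.28%. Members that fell with the empty vector held the NRF1 motif in 8 of 33 windows and members not called in 7 of 36. For the ETS motif these were 10 of 33 and 8 of 36, and for the YY1 motif 3 of 33 and 4 of 36. The 3 windows of members that rose held the NRF1 motif in 1, the ETS motif in 2 and the YY1 motif in 0. These differences were not tested. A match describes the letters only and is not a measured binding site.

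In untreated cells the members were abundant transcripts. On a per-length scale, CPM per kilobase of the main transcript, the 90 tested members had a median of 46.02, against 2.586 for the 16213 tested genes with a transcript length. The highest levels were those of COX4I1, the largest nuclear-encoded subunit of complex IV, at 527.7 ± 31.6 CPM per kilobase (SD, n = 3, as for all group values here) and NDUFS8, an iron-sulfur core subunit of complex I, at 524.8 ± 31.9, which do not differ beyond their spread. COX8A of complex IV was also within that spread, at 508.9 ± 50.6. In complex III the highest was CYC1, its cytochrome c1, at 327.0 ± 25.7, and in complex V ATP5B, the catalytic beta subunit of ATP synthase, at 315.9 ± 9.31, which do not differ beyond their spread. SDHB, the iron-sulfur subunit of complex II, was at 77.86 ± 6.79 and SDHA, the flavoprotein, at 76.93 ± 1.35, which do not differ beyond their spread. CYCS, the electron carrier cytochrome c, was at 10.76 ± 1.18.

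The lowest per-length levels among tested members of each complex were those of NDUFA7 (0.9514 ± 0.0757 CPM per kilobase), SDHC (4.532 ± 0.314), UQCRHL (5.415 ± 0.0831), NDUFA4L2 (1.528 ± 0.352) and ATP5L2 (0.3644 ± 0.0785). Such levels rest on the transcript chosen for the length: the main SDHC transcript has 13566 bases, the longest of the tested members. UQCRHL is a near-identical copy of UQCRH, the hinge protein of complex III, so its reads are uncertain. Among assembly factors, which build complex I without staying in it, NDUFAF3 was highest at 42.19 ± 0.958 and NDUFAF5 lowest at 0.4411 ± 0.11 CPM per kilobase.

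Several subunits have a second gene known from muscle, lung, testis or hypoxic cells, and in most such pairs the reads lay with the common gene. COX4I1 averaged 373.6 ± 22.4 CPM in untreated cells, while its partner COX4I2 had 1 read among all 9 libraries. COX6A1 averaged 45.31 ± 1.5 and COX7A2 155.1 ± 10.6 CPM, while the muscle forms COX6A2 and COX7A1 had no read. COX7B was at 47.68 ± 3.05 CPM with COX7B2 at no read, and COX8A at 258.0 ± 25.6 CPM with COX8C at 14 reads in all libraries, 11 of them in a single untreated library. COX6B2, known from testis, was the exception with 11.22 ± 0.302 CPM beside 172.5 ± 11.9 for COX6B1, though 30.9% of its exon length is shared with another gene on the same strand. NDUFA4L2, known as a hypoxia-induced form, stood at 1.812 ± 0.418 CPM beside 71.5 ± 3.4 for NDUFA4.

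With the empty vector, many transcripts of complexes I, III, IV and V fell against untreated cells and none of complex II did. Of 90 tested members, 39 fell and 5 rose, or 43.3% and 5.56%. Of all 16366 genes tested, 9.37% fell and 10.2% rose (19.6% called in all). The median log2 fold change was -0.23 over members and 0.04 over all genes. The call is an adjusted p below 0.05 in the edgeR quasi-likelihood test with TMM scaling, which sets library sizes so that most genes are unchanged. Scaled by total counts alone, the median of all genes moved to 0.29 and that of members to 0.02, with 21 members lower and 25 higher. Of the 16366 genes tested, 5721 were then called higher among 6059 called in all, against 1676 of 3209 with TMM. Higher calls by total counts, here and below, stand beside that share of all genes. Relative to all genes, members were lower by 0.27 under both scalings. A change of scaling shifts all genes almost equally, so this agreement is built in and is no check on the falls. Of the 39 that fell, 37 stayed below 0 by total counts and 21 of these were called, while the other 2 turned above 0. All 5 that rose were also called higher by total counts, and leaving out untreated replicate 1 left 3 members called higher in the TMM fit. Levels of 43 members did not overlap in the lower direction and 10 in the higher, or 47.8% and 11.1%, against 15.3% and 17.4% of all genes, and 36 of the 39 falls were among them.

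**Figure D1:**
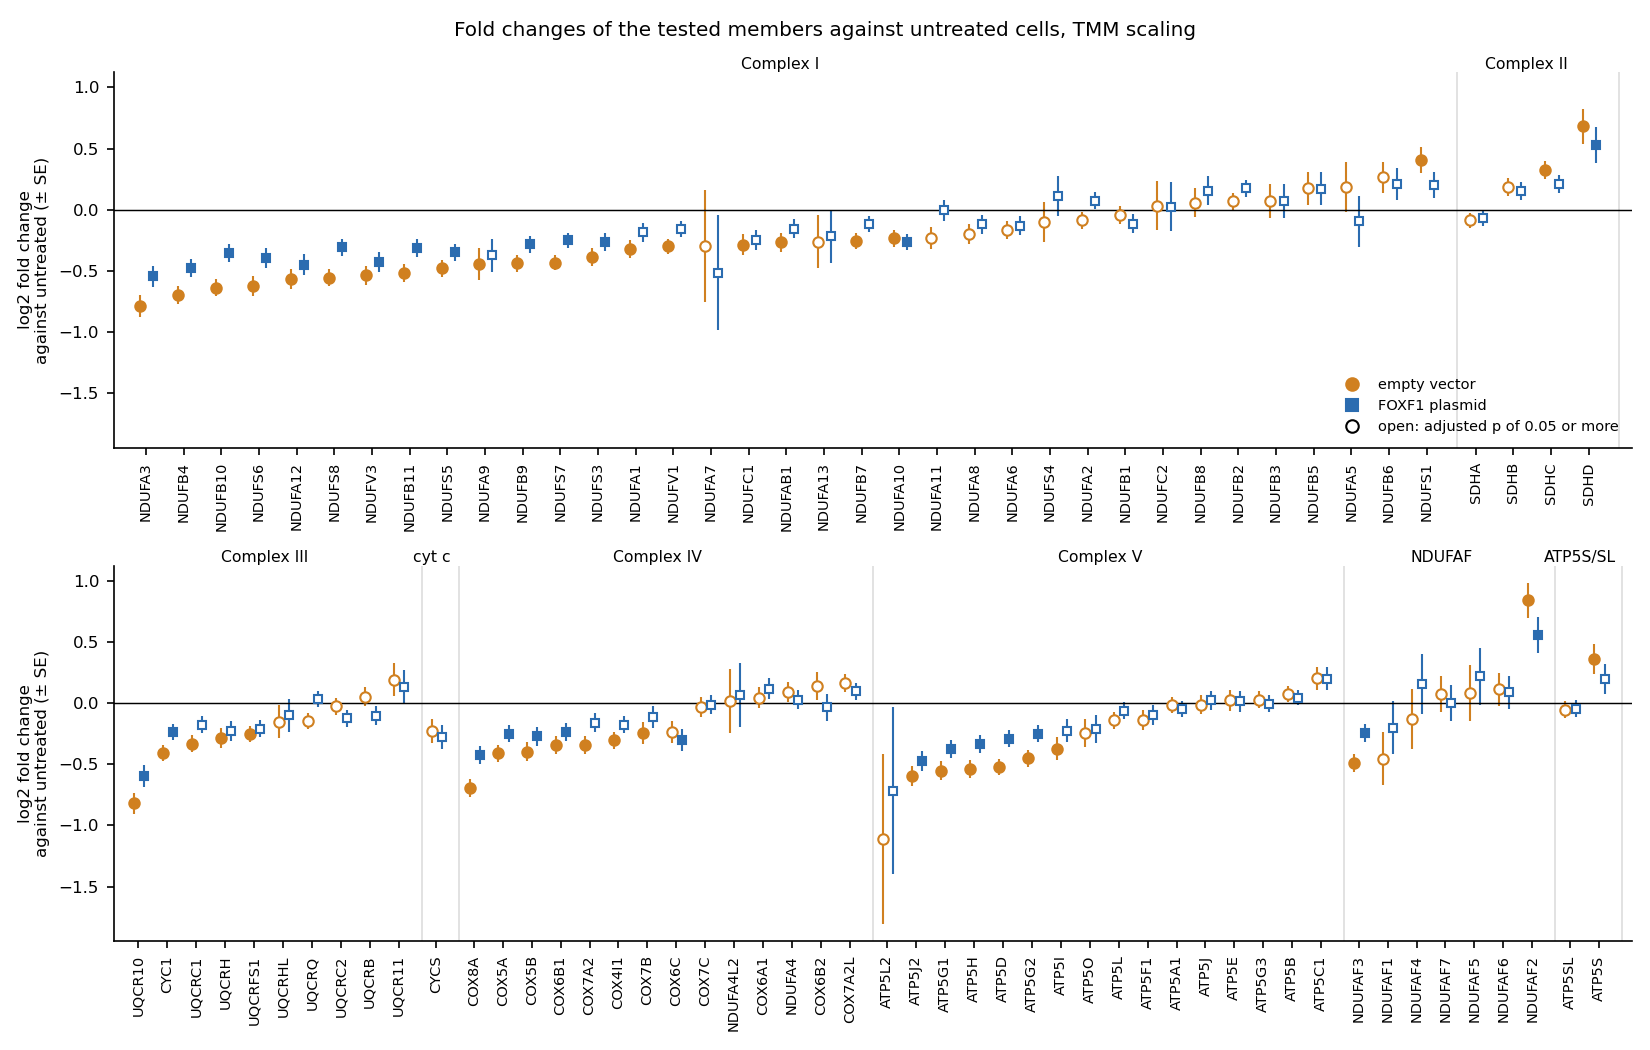
Log2 fold change against untreated cells (vertical axis, bars ± SE) of the tested members (1 is not drawn), by complex, for the empty vector (circles) and the FOXF1 plasmid (squares), with filled symbols for an adjusted p below 0.05. Filled symbols lie below 0 except SDHC, SDHD, NDUFS1, NDUFAF2 and ATP5S. Values are TMM-scaled. By total counts alone the members' medians are 0.02 in both comparisons, and 2 of the 39 falls with the empty vector turn above 0.

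Complex I (NADH dehydrogenase) had 20 falls and 1 rise among 36 tested subunits, with a median of -0.27 (-0.02 by total counts). By total counts 11 were called lower and 4 higher. NDUFA3, an accessory subunit of the membrane arm, had 92.63, 96.03 and 76.31 CPM in untreated and 59.09, 46.86 and 47.69 CPM in empty vector libraries. Every empty vector library lay below every untreated one, and the log2 fold change was -0.79 ± 0.09 (SE), with an adjusted p of 1.62e-07. NDUFB4, a further membrane-arm accessory subunit, had 165.3, 159.4 and 132.9 CPM against 100.6, 88.96 and 93.23, a log2 fold change of -0.69 ± 0.07 with an adjusted p of 5.72e-08. NDUFB10, NDUFS6 and NDUFA12, accessory subunits as well, fell by 0.64, 0.62 and 0.56 on the log2 scale.

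Of the 7 core subunits of complex I that nuclear genes encode, 6 were tested, 5 fell and 1 rose. NDUFS8, which carries iron-sulfur clusters on the path to the quinone site, had 443.7, 405.8 and 395.9 CPM in untreated and 301.2, 255.2 and 290.3 CPM in empty vector libraries, and the groups did not overlap (log2 fold change -0.56 ± 0.07 SE, adjusted p 8.35e-07). NDUFV1, the NADH-binding flavoprotein, fell by 0.30 on the log2 scale, and by total counts its call was lost (-0.055, adjusted p 0.43). NDUFS1, the largest iron-sulfur subunit, went the other way, with 19.82, 26.57 and 23.37 CPM in untreated and 28.48, 31.21 and 32.78 with the empty vector. Its log2 fold change was 0.41 ± 0.11 (adjusted p 0.00787), called in all alternatives but the one without untreated replicate 1 (0.29). NDUFV2, the remaining core subunit, had 2 to 9 reads per library and was not tested.

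Complex II (succinate dehydrogenase) had 2 rises and no fall among its 4 subunits. SDHD, a membrane anchor, had 7.051, 8.131 and 9.472 CPM in untreated and 10.42, 13.09 and 15.97 CPM in empty vector libraries, a log2 fold change of 0.68 ± 0.15 (SE) with an adjusted p of 0.00106. SDHC, the other anchor, had 56.58, 63.7 and 64.18 against 69.38, 79.54 and 82.47 CPM, or 0.33 ± 0.07 with an adjusted p of 0.00177. All empty vector libraries lay above all untreated ones for both anchors. The catalytic subunits were not called: SDHA, the flavoprotein, was at -0.09 ± 0.06 and SDHB at 0.19 ± 0.07 (adjusted p 0.0752). By total counts both were called higher, SDHA at 0.16 (adjusted p 0.0275) and SDHB at 0.43 (adjusted p 0.000418). All 4 subunits were called higher by total counts, and 3 with GC and length offsets. By total counts 5721 of all 16366 genes tested were called higher too.

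Complex III had 5 falls among 10 tested subunits (median -0.20, and 0.04 by total counts). UQCR10, a small subunit of the membrane part, had the largest fall of all called members, from 192.8, 196.3 and 150.9 CPM in untreated to 119.5, 89.39 and 96.95 CPM in empty vector libraries. The groups did not overlap, and the log2 fold change was -0.82 ± 0.09 (SE), with an adjusted p of 8.5e-08. Of the 4 core and catalytic subunits, CYC1 fell by 0.41, UQCRC1, a core protein, by 0.33 and UQCRFS1, the Rieske iron-sulfur protein, by 0.25 on the log2 scale, and UQCRC2 was not called. The call of UQCRFS1 was lost without empty vector replicate 2 (-0.23), and by total counts those of UQCRC1 (-0.09) and UQCRFS1 (-0.01) were lost. CYCS was not called at -0.23 ± 0.10, with an adjusted p of 0.0968 and overlapping groups, and stood at 0.02 by total counts.

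Complex IV (cytochrome c oxidase) had 7 falls among 14 tested genes (median -0.24, and 0.00 by total counts). COX8A, a small subunit, had 286.1, 252.0 and 235.9 CPM in untreated and 175.5, 148.4 and 155.2 CPM in empty vector libraries, with no overlap (log2 fold change -0.69 ± 0.07 SE, adjusted p 4.87e-08). Of its exon length 34.5% is shared with AP000721.1 on the same strand. COX5A and COX5B fell by 0.41 and 0.40, COX6B1 and COX7A2 by 0.34 each, COX4I1 by 0.31 and COX7B by 0.25 on the log2 scale. By total counts, COX5A and COX8A stayed called and the other 5 values, from -0.15 (COX5B) to -0.00 (COX7B), did not. The COX7B call was also lost without any of 5 single libraries. COX6A1, a structural subunit, was at 0.04 ± 0.08 and not called. NDUFA4, counted here with complex IV, was at 0.09 ± 0.08 (-0.05 with GC and length offsets) and not called. By total counts both were called higher, COX6A1 at 0.29 (adjusted p 0.0112) and NDUFA4 at 0.33 (adjusted p 0.00267). Complex IV then had 4 genes called higher and 2 lower.

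Complex V had 6 falls among 16 tested subunits (median -0.19, and 0.05 by total counts), and its parts differed in their calls. In the F1 head, the catalytic pair was not called: ATP5A1 was at -0.02 ± 0.07 and ATP5B at 0.07 ± 0.06. By total counts both were called higher, at 0.23 (adjusted p 0.0169) and 0.32 (adjusted p 0.000179). ATP5B had 584.2, 562.3 and 596.1 CPM in untreated and 625.7, 577.6 and 627.1 CPM in empty vector libraries, and the groups overlapped. ATP5D was the member called among the 5 of the head. The c ring, the rotor in the membrane, is encoded by 3 genes that give the same mature protein. ATP5G1 had 160.0, 138.2 and 129.3 against 107.2, 94.11 and 90.37 CPM (log2 fold change -0.55 ± 0.08, adjusted p 4.37e-06), and ATP5G2 fell by 0.45 on the log2 scale. ATP5G3, with 142.0, 128.3 and 142.3 against 133.8, 136.1 and 150.1 CPM, was not called (0.03 ± 0.07), and its sign turned with RLE factors (-0.00) and with GC and length offsets (-0.12), while by total counts it was called higher at 0.27 (adjusted p 0.0045). ATP5J2, the f subunit of the membrane part, fell by 0.60 on the log2 scale. ATP5L2, listed with 1 to 12 reads per library, was not called.

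**Figure D2:**
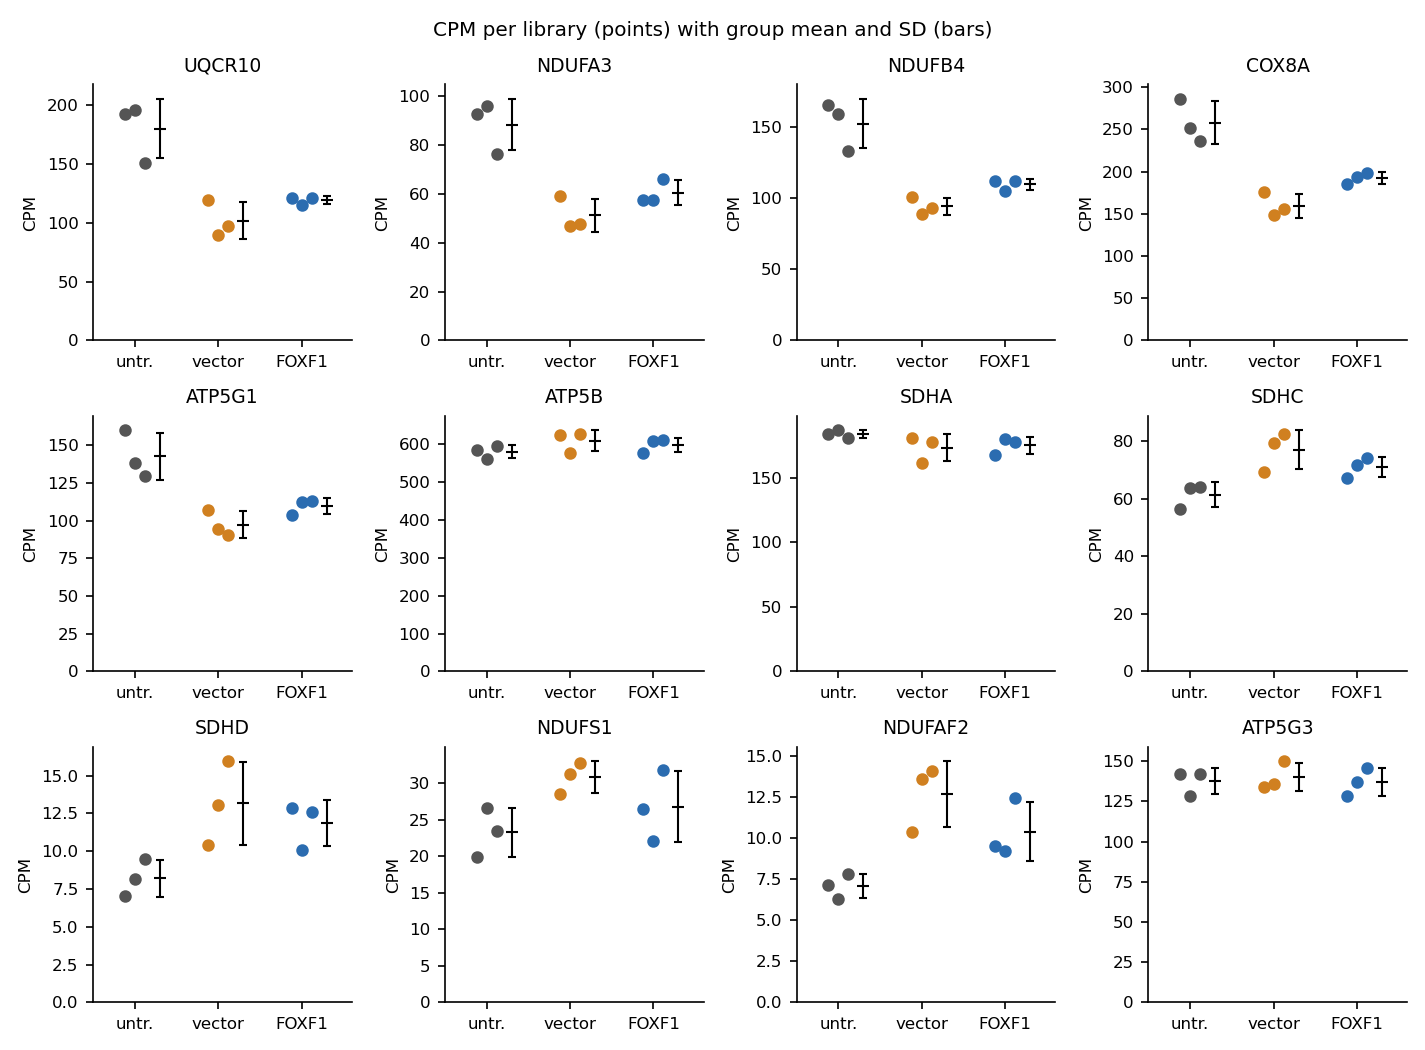
CPM on TMM-scaled library sizes (vertical axes from 0) in each library for 12 members, with group means and SD as bars; untr. is untreated, vector is the empty vector and FOXF1 is the FOXF1 plasmid. For UQCR10, NDUFA3, NDUFB4, COX8A and ATP5G1 the untreated libraries lie above all transfected ones, for SDHC, SDHD and NDUFAF2 below, and for ATP5B and ATP5G3 the groups overlap.

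Among the 7 complex I assembly factors, NDUFAF2 rose and NDUFAF3 fell with the empty vector. NDUFAF2 is a paralog of the subunit NDUFA12 that helps a late assembly intermediate, and it had 7.136, 6.312 and 7.799 CPM in untreated and 10.34, 13.55 and 14.07 CPM in empty vector libraries. The groups did not overlap, and its log2 fold change of 0.84 ± 0.14 (adjusted p 8.37e-05) was the largest rise among members. NDUFA12 itself had 83.53, 88.18 and 71.15 against 62.37, 50.06 and 51.94 CPM, a log2 fold change of -0.56 ± 0.08. NDUFAF3 fell by 0.49 on the log2 scale. ATP5S, a member by its symbol and not a subunit, was at 0.36 ± 0.12 with an adjusted p of 0.0357, and this call was lost under 7 of the alternatives, 4 of them single libraries left out.

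With the FOXF1 plasmid, members of complexes I, III, IV and V again fell against untreated cells. Of 90 tested members, 26 fell and 2 rose, or 28.9% and 2.22%, against 3.89% and 4.63% of all genes (8.52% called in all). The median log2 fold change was -0.13 over members and 0.02 over all genes. By total counts it was 0.02 and 0.16, with 11 members lower and 11 higher. Of the 16366 genes tested, 2320 were then called higher among 2500 called in all, against 757 of 1394 with TMM. All 26 falls stayed below 0 by total counts and 11 were called. Levels did not overlap for 37 members in the lower and 3 in the higher direction (41.1% and 3.33%), against 12.6% and 14.1% of all genes. Leaving out FOXF1 plasmid replicate 1 left 16 lower and 1 higher, leaving out replicate 3 of that group left 24 and 0, and leaving out untreated replicate 1 or 2 left 21 and 1 or 18 and 0.

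By complex, the falls with the FOXF1 plasmid were 13 of 36 in complex I, 2 of 10 in complex III, 5 of 14 in complex IV and 5 of 16 in complex V, together with NDUFAF3. The rises were SDHD and NDUFAF2. The comparison shares the untreated libraries with that of the empty vector, so the calls are not independent: 25 of its 26 lower calls and both of its higher calls were also made with the empty vector. The call not shared, COX6C of complex IV, was singled out after its values were seen. COX6C was at -0.30 ± 0.09 (adjusted p 0.0343) with the plasmid and -0.24 ± 0.09 (adjusted p 0.061) with the empty vector, with overlapping groups in both. Between plasmid and empty vector it was at -0.06 ± 0.09 (adjusted p 0.884). UQCR10 had 121.3, 115.2 and 121.0 CPM with the plasmid, all below the untreated libraries, for a log2 fold change of -0.60 ± 0.09 (SE, adjusted p 3.27e-05). NDUFA3, at 57.69, 57.59 and 66.3 CPM, was at -0.55 ± 0.09 (adjusted p 9.82e-05), and ATP5J2, at 29.11, 29.31 and 29.95 CPM, was at -0.48 ± 0.08 (adjusted p 0.000194).

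The other members with the largest falls under the FOXF1 plasmid were NDUFB4, NDUFA12, NDUFV3, COX8A, NDUFS6, ATP5G1 and NDUFB10, which fell by 0.47, 0.45, 0.42, 0.42, 0.40, 0.38 and 0.35 on the log2 scale. NDUFV3 is an accessory subunit at the NADH-oxidising tip of complex I. SDHD had 12.88, 10.09 and 12.61 CPM with the plasmid, above all untreated libraries (log2 fold change 0.53 ± 0.15, adjusted p 0.0196). NDUFAF2 had 9.52, 9.21 and 12.43 CPM (0.55 ± 0.15, adjusted p 0.0136). The SDHD call was lost without untreated replicate 1 (0.42) or 2 (0.51) or FOXF1 plasmid replicate 1 (0.47) or 3 (0.49), and that of NDUFAF2 without untreated replicate 2 (0.47) or FOXF1 plasmid replicate 3 (0.40). SDHC stood at 0.21 ± 0.07 and was not called (adjusted p 0.0779).

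No member passed the test between the FOXF1 plasmid and the empty vector. The edgeR quasi-likelihood test called 9 of 16366 genes (0.055%, all higher). At an unadjusted p below 0.05, 24 of 90 members were higher and 0 lower, against 5.09% and 4.34% of all genes. Levels did not overlap for 16 members in the higher and 2 in the lower direction (17.8% and 2.22%), against 7.33% and 5.68%. The median log2 fold change was 0.08 over members and -0.01 over all genes, and by total counts -0.02 and -0.11. The empty vector libraries also enter the comparison with untreated cells, with the opposite sign. Values above the empty vector here are thus not independent of the falls there. DESeq2 called 5 members higher (ATP5D, COX8A, NDUFB10, NDUFS7 and NDUFS8) and limma-voom 0. Without empty vector replicate 1, the library nearest to untreated cells in UQCR10, NDUFA3 and NDUFB4, the edgeR test called 10 members higher.

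NDUFB10, a membrane-arm accessory subunit of complex I, had 239.9, 187.5 and 215.0 CPM with the empty vector and 257.6, 261.5 and 262.2 CPM with the FOXF1 plasmid. The groups did not overlap, and the log2 fold change was 0.28 ± 0.07 (SE) with an adjusted p of 0.166, the smallest among members. COX8A, at 185.0, 194.1 and 198.1 CPM with the plasmid, lay above all 3 empty vector libraries at 0.27 ± 0.07 (adjusted p 0.18), and NDUFS8 likewise at 0.25 ± 0.07 (adjusted p 0.2). UQCR10 was at 0.23 ± 0.09 with overlapping groups (adjusted p 0.432). SDHD was at -0.15 ± 0.14 and NDUFAF2 at -0.29 ± 0.14, neither called. SDHD turned to 0.01 without empty vector replicate 3.

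Summed over subunits, the CPM of nuclear-encoded transcripts was 9828 ± 401 in untreated, 7973 ± 483 in empty vector and 8624 ± 336 in FOXF1 plasmid libraries. As a share of all counts the sums were 0.896% ± 0.0067, 0.862% ± 0.023 and 0.872% ± 0.033, and all counts include the mitochondrially encoded transcripts. Complex I summed to 3562 ± 179, 2711 ± 184 and 3016 ± 84.0 CPM in untreated, empty vector and FOXF1 plasmid libraries. Complex V summed to 2270 ± 58.2, 1984 ± 102 and 2084 ± 88.3 CPM, while as a share of all counts it went the other way, from 0.207% ± 0.0031 to 0.215% ± 0.0051 and 0.211% ± 0.0089. Complex II summed to 343.3 ± 10.5, 365.7 ± 13.3 and 358.1 ± 18.9 CPM, with the untreated mean the lowest on both scales. With 3 libraries against 3, an exact permutation test of a sum cannot go below 0.1, and none was run.

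The 13 subunits that the mitochondrial genome encodes summed to 220800 ± 29200 CPM in untreated, 98410 ± 9660 in empty vector and 133100 ± 7910 in FOXF1 plasmid libraries. Against untreated cells 12 of 13 fell with the empty vector (median -1.13, and -0.88 by total counts) and 11 of 13 with the plasmid (median -0.68, and -0.53 by total counts). Between the plasmid and the empty vector 4 of 13 rose. Without mitochondrially encoded genes and their pseudogenes in the fit, 39 members were lower and 5 higher with the empty vector against untreated cells, with a median of -0.228. Any other part of these transcripts in the members' values was not tested. In complexes I, III, IV and V the nuclear and the mitochondrial sums were thus both highest in untreated and lowest in empty vector libraries, as means on the TMM scale.

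**Figure D3:**
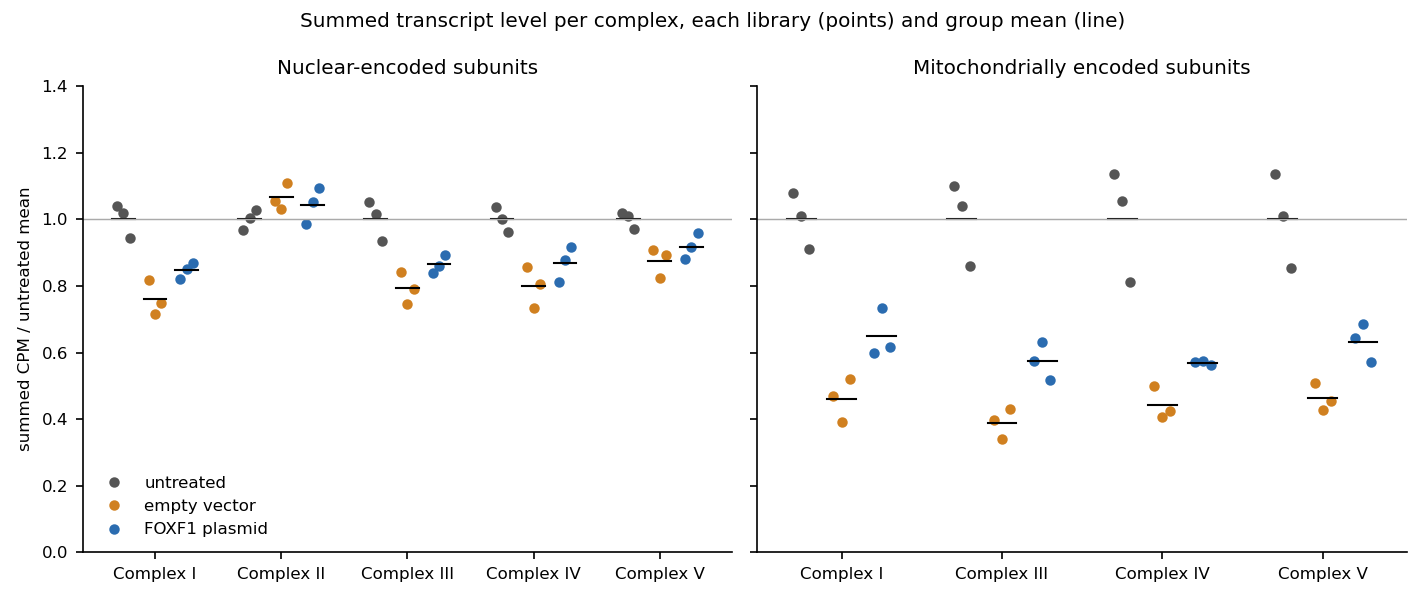
Summed CPM of the nuclear-encoded (left) and mitochondrially encoded (right) subunits of each complex, each library divided by the untreated mean of its complex (vertical axis, from 0), with lines for group means. The empty vector means lie below 1 in complexes I, III, IV and V on both sides and above 1 in nuclear complex II; as a share of all counts nuclear complex V turns, at 0.207% in untreated and 0.215% in empty vector libraries.

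Ratios of read counts within a library do not depend on scaling. ATP5G1 over ATP5G3, genes for the same mature protein, was 1.13, 1.08 and 0.908 in untreated, 0.801, 0.692 and 0.602 in empty vector and 0.81, 0.821 and 0.778 in FOXF1 plasmid libraries. Both transfected groups lay below all untreated libraries. ATP5D over ATP5B, subunits of the same F1 head, averaged 0.489 ± 0.044, 0.324 ± 0.012 and 0.388 ± 0.022, with no overlap between any of the 3 groups. SDHD over SDHA, subunits of complex II, averaged 0.0448 ± 0.0072, 0.0762 ± 0.017 and 0.0679 ± 0.011, and here the transfected libraries lay above all untreated ones. NDUFA3 over NDUFS1, both of complex I, averaged 3.85 ± 0.73, 1.68 ± 0.35 and 2.29 ± 0.28. A ratio shows unequal change and not which partner changed. The pairs were chosen with their values known, so no test is given.

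**Figure D4:**
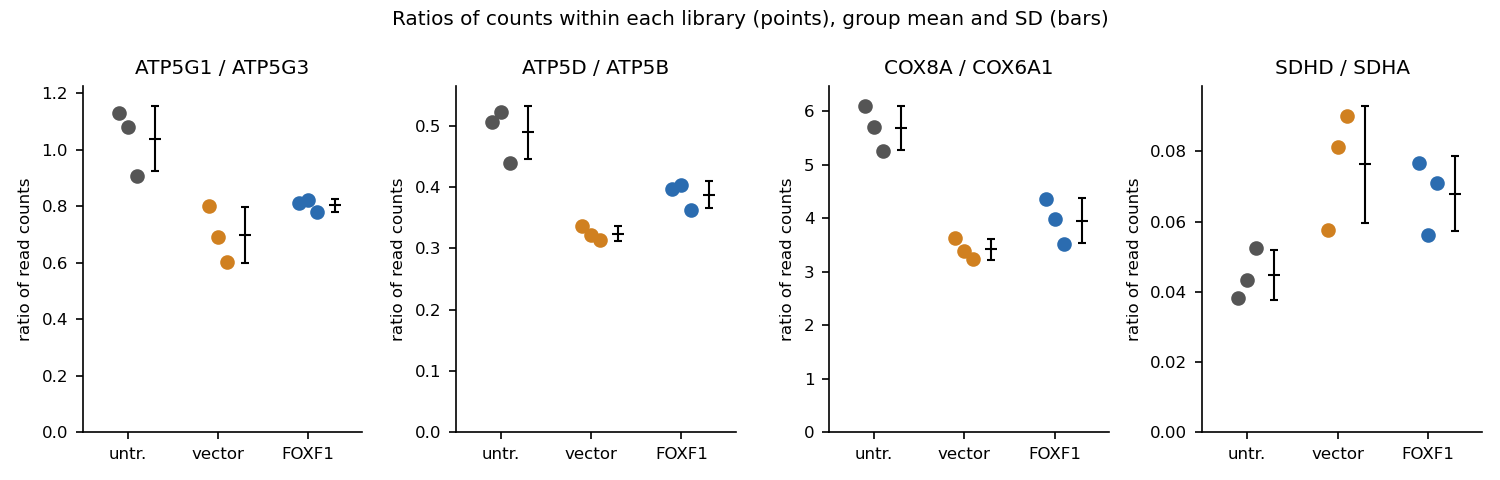
Ratio of read counts of 2 members within each library (vertical axes from 0), with group means and SD as bars; untr. is untreated, vector the empty vector and FOXF1 the FOXF1 plasmid. ATP5G1 over ATP5G3, ATP5D over ATP5B and COX8A over COX6A1 are higher in every untreated library than in any transfected one, and SDHD over SDHA is lower.

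Fold changes varied with transcript length and base composition among the members. The main transcripts of the 39 members that fell with the empty vector had a median length of 885 bases and a GC content of 53.8%. The 5 that rose had 10212 bases and 42.1%, and the 46 not called 1345 bases and 45.6%. All 90 had 1147 bases and 48.3%, against 2692 bases and 50.5% for all tested genes. Across the 90 members, Spearman's rho of the log2 fold change was 0.418 with length and -0.493 with GC content, against 0.17 and -0.274 across 16213 tested genes. With the mean level in untreated libraries rho was -0.427 over members and -0.18 over all genes. The untreated level is also the base of the fold change, so noise in it pushes this rho downward. For the FOXF1 plasmid against untreated cells, rho with length and GC content was 0.331 and -0.397 over members, beside 0.00627 and -0.0388 over all genes. Between the FOXF1 plasmid and the empty vector rho was -0.418 and 0.47 over members, and -0.274 and 0.394 over all genes. The empty vector libraries enter this comparison and that with untreated cells with opposite signs, so opposite rhos are partly built in. Members share libraries and counting, so these are descriptions. With offsets for GC content and length in the fit, 39 members were lower and 6 higher with the empty vector and the median was -0.16. Of the 39 falls 35 stayed called, and NDUFB7 turned above 0. The part that length or GC content has in the remaining values was not tested.

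**Figure D5:**
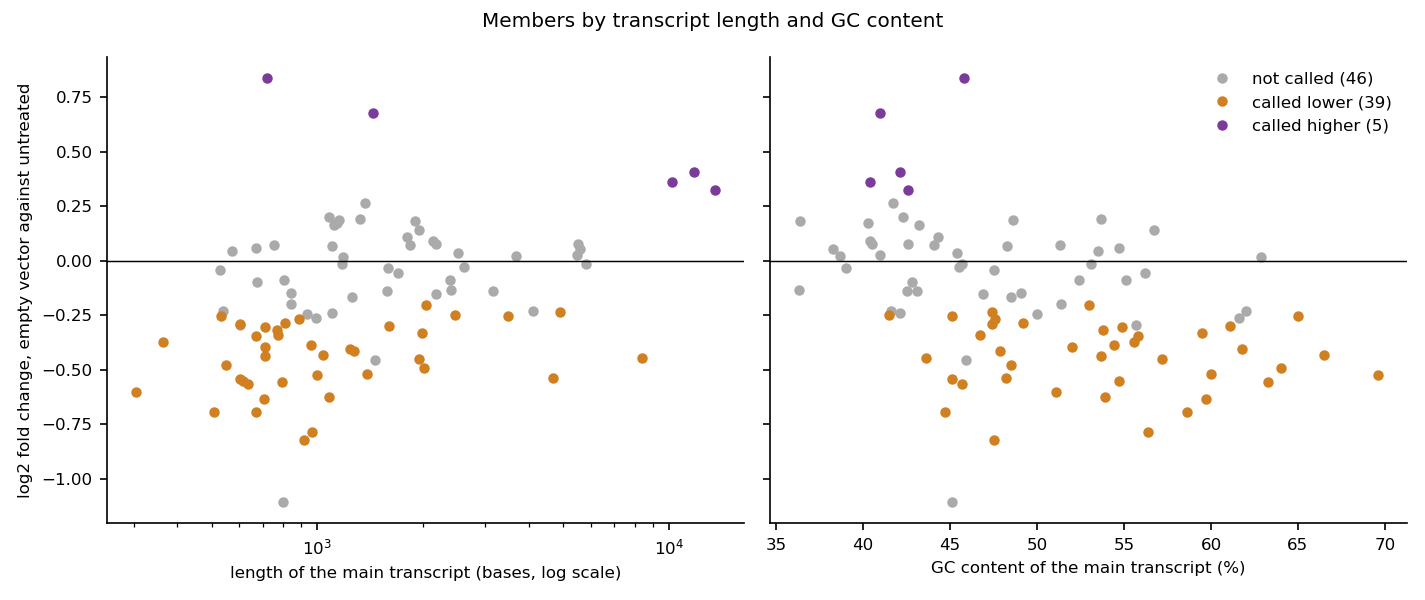
Log2 fold change of the empty vector against untreated cells (vertical axis, TMM-scaled) of the 90 tested members against the length of the main transcript (left, log axis) and its GC content (right). The 39 lower calls centre on 885 bases and 53.8% GC, and 3 of the 5 higher calls lie at 10212 bases or more.

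Of 44 assembly factors outside the families above, 42 were tested, and with the empty vector 4 rose and 7 fell (18 and 2 by total counts), with a median of 0.01. These are 9.52% and 16.7% of the list, beside 10.2% and 9.37% of all genes, and nothing is read from them about the list. The same holds for the 18 higher by total counts, where 5721 of all 16366 genes tested were called higher. UQCC2, a complex III assembly factor, averaged 103.2 ± 12.5 CPM in untreated and 68.63 ± 7.32 in empty vector libraries, a fall of -0.59 ± 0.08 on the log2 scale with an adjusted p of 3.78e-06. COA3, for complex IV, fell from 78.05 ± 6.53 to 55.27 ± 4.66 CPM (-0.50 ± 0.07). LYRM7, which helps to insert the Rieske protein UQCRFS1, had 2.214 ± 0.349 and 3.962 ± 1.28 CPM, a rise of 0.84 ± 0.23 with an adjusted p of 0.00952. With the FOXF1 plasmid against untreated cells, UQCC2 was the call among the 42 (-0.37 ± 0.08), and between plasmid and empty vector there was none.

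Of 16 regulators of respiratory genes and of mitochondrial transcription, 15 were tested, and with the empty vector 1 rose and 2 fell (8 and 0 by total counts), or 6.67% and 13.3% beside the same 10.2% and 9.37% of all genes, which is near that background. The 8 higher by total counts stand beside 5721 of all 16366 genes, and nothing is read from them. YY1, a zinc finger factor with targets among respiratory genes, had 68.28 ± 4.92 CPM in untreated and 104.0 ± 15.3 in empty vector libraries, a rise of 0.61 ± 0.08 on the log2 scale with an adjusted p of 2.4e-06. With the FOXF1 plasmid YY1 was at 92.47 ± 3.31 CPM, 0.44 ± 0.08 above untreated on the log2 scale. PPRC1, a coactivator of the PGC-1 family, fell from 164.8 ± 12.8 to 132.2 ± 2.87 CPM. POLRMT, the RNA polymerase of mitochondria, fell from 192.4 ± 14.4 to 152.9 ± 6.86 CPM with the empty vector and to 162.2 ± 6.95 with the plasmid. NRF1 itself was not called in any of the 3 comparisons.

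How reads were assigned limits some members. NDUFV2, a core subunit of complex I, was listed at 2 to 9 reads per library, and 28.4% of its exon length is shared with AP005263.1 on the same strand. NDUFA7 appears in 2 rows, 1 of them with 7 reads in all libraries and the tested one with 165. Same-strand sharing is also 32.3% for the tested NDUFA7 row, 33.8% for NDUFB8 and 21% for NDUFA13. Named pseudogenes exist in the table for 39 tested members, and the reads assigned to them passed 5% of the member's own for SDHA alone, at 5.96%. Reads that match both a member and a pseudogene were not examined. The strand setting of the counting is not given in the sources used here, so reads from a gene and its antisense partner cannot be told apart.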

How the data were processed

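Values are whole-number read counts per gene, as deposited by the authors in 1 table. Per the submitters' processing notes, bcl2fastq, STAR 2.5.2b, HTSeq and GRCh38 were used, and per the labels' protocols the libraries came from a stranded kit for polyadenylated RNA. The strand setting and the annotation release are not given in these sources. Gene IDs matched GENCODE 29 for 56591 of 64253 rows, which gave lengths (the main transcript), GC content and overlaps.

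Counts were filtered with filterByExpr (minimum 10), scaled by TMM and tested over 9 libraries and 16366 genes with the quasi-likelihood F test of edgeR 4.0.16 in R 4.3.3, without covariates, with Benjamini-Hochberg adjustment over all genes and calls at 0.05. The SE is the log2 fold change over the square root of F. The code was tested on simulated data. Alternatives were RLE factors, total counts, other filters, fewer groups, a replicate block, omission of mitochondrial genes, GC and length offsets (mgcv 1.9.3), each library left out, DESeq2 1.42.0 and limma-voom 3.58.1. All pairs of libraries in a group differed by more than sampling noise (chi-square per degree of freedom 9.17 to 25.3).

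The members and lists were chosen with earlier results of these data known. Named with values were the 10 largest called rises and falls per comparison (mean log2 CPM of at least 1), fixed core subunits (1 is not reported here), paralog groups and the highest and lowest members per length. Groupings by role, ratio pairs and the promoters shown were chosen after values were seen.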

Additional observations from a re-analysis of the deposited data

How the results depend on the processing

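Of 80 named fold changes, 1517 values under alternatives gave 1407 with the same direction and call, 59 that lost the call, 28 that gained it and 23 that changed sign. The cause of these changes was not tested. Scaling by total counts moved the median of members from below 0 to 0.019 for both transfected groups against untreated cells, and to -0.021 between the plasmid and the empty vector. It gave 25 members higher, 21 lower and 6059 genes called for the empty vector, and 11, 11 and 2500 for the FOXF1 plasmid. Under it ATP5A1 (0.228), CYCS (0.020), SDHA (0.159) and UQCRHL (0.088) turned sign for the empty vector. GC and length offsets gave a median of -0.158 for the empty vector and 2175 genes called for the plasmid against untreated. They turned ATP5G3 (-0.118), NDUFA4 (-0.052) and NDUFAF5 (-0.065) for the empty vector, and ATP5J2 (-0.011) and SDHC (0.009) between plasmid and vector. RLE factors and DESeq2 both turned ATP5G3 (-0.004) and NDUFA4L2 (-0.012) for the empty vector. Between plasmid and vector, where 9 genes were called, RLE factors gave 16, no filter 96 with 2 members higher, omission of mitochondrial genes 1, and DESeq2 108 with 5 members higher.

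Leaving out 1 library at a time gave, for the empty vector against untreated, 3 to 6 members higher, 30 to 40 lower, 2092 to 3897 genes called and a median of -0.242 to -0.178. The lowest number of genes came without empty vector replicate 2. For the FOXF1 plasmid against untreated the ranges were 0 to 3 higher, 16 to 30 lower, 817 to 1729 genes and -0.192 to -0.110. Between plasmid and vector they were 0 to 10 members higher, 0 lower, 1 to 326 genes and 0.023 to 0.122, with 326 genes without empty vector replicate 1. Signs turned within the ranges of ATP5A1 (-0.065 to 0.006), ATP5G3 (-0.031 to 0.058), NDUFA4L2 (-0.177 to 0.203) and NDUFAF5 (-0.043 to 0.295) for the empty vector, and SDHD (-0.291 to 0.013) between plasmid and vector.

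Equal replicate numbers did not pair the libraries (correlations of deviations from -0.09 to 0.084). With the replicate number as a block, 6 members were higher and 39 lower for the empty vector, 3 and 27 for the plasmid against untreated, and 0 and 0 between plasmid and vector, where 16 genes were called. ATP5L2, NDUFA7 and NDUFV2 had few reads, which limits what can be said of them. The cause of their low counts was not tested.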
